A study of Mus musculus with 27 samples.

Results

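Trabecular ventricular cardiomyocytes of the E11.5 mouse heart were taken from a table of unique molecular identifiers (UMIs, each standing for 1 captured transcript molecule) by their own levels of a few genes. A barcode was kept when haemoglobin genes held under 10% of its UMIs, when Tnnt2, Actc1, Myl7, Myl4 and Tnnc1 together held 1% or more, and when Myl2 and Nppa each reached 10 UMIs per 10,000. Barcodes with 3 or more UMIs over the outflow genes Isl1, Rspo3, Sema3c and Bmp4, or over the endothelial genes Pecam1, Cdh5 and Egfl7, were left out. The rule kept 162 of 6032 barcodes, 66 of 2563 in the library labelled +/+ and 96 of 3469 in the library labelled F/F. The members were chosen by these values, so the levels of the genes named in the rule describe the choice and are not a finding.

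The study deleted Hand2os1 (also called Hand2as), a long noncoding RNA gene beside Hand2, which encodes a transcription factor of the heart, and compared hearts with and without it. The library labelled +/+ came from wild-type embryos and the library labelled F/F from embryos homozygous for F, the allele in which the full length of the gene is deleted. For each, hearts of 6 embryos at E11.5 on a C57BL/6 background, from crosses between heterozygotes, were made into single cells with trypsin, sorted for live cells with 7-AAD and combined, with about 5000 cells aimed for. Bulk libraries of whole E11.5 hearts, 3 labelled F/+ (heterozygous) and 3 labelled F/F, were used as samples that had no part in choosing the cells. The deletion was in every cell of the embryo, and 1 pooled single-cell library per genotype gave no replicate, so no comparison between the cells has a p-value.

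Trabeculae are the muscular ridges that line the inside of the ventricles, while the compact layer forms the outer wall. They grow under signals that pass between endocardium and myocardium, among them neuregulin and its ErbB receptors, Notch, and BMP10, and trabecular muscle is known for dividing less than the compact wall and for conducting the impulse before the mature conduction system forms. Nppa encodes atrial natriuretic peptide, and in the embryonic ventricle its transcript is a standard mark of the trabecular layer. Myl2 encodes the ventricular regulatory myosin light chain and separates ventricular from atrial muscle. Cells that passed every step except the one for Nppa are called compact below, and cardiomyocytes that missed the Myl2 step are called Myl2-low. Both classes are ranges of expression, not sorted types.

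The libraries differed in more than their label. The target gene gave only 1 UMI over the 2563 barcodes labelled +/+ but 9 over the 3469 labelled F/F, so it went against the labels, and every direction between the libraries rests on the labels alone. In the 6 bulk E11.5 hearts Hand2os1 is listed at 0 in every library. The Y-linked genes Ddx3y, Eif2s3y, Kdm5d and Uty gave 850 UMIs in the +/+ library, with at least 1 in 23 of its 66 trabecular cells, and 0 in the 3469 barcodes of the F/F library. Xist, expressed from the inactive X chromosome of female cells, was found in 62.1% of the trabecular cells of the +/+ library and in 94.8% of those of the F/F library. Sex and genotype therefore cannot be told apart between the libraries where a gene depends on sex. The libraries shared 18 barcodes, 2 of them among the trabecular cells. Trabecular cells held a median of 17931 UMIs in the +/+ library and 16964 in the F/F library, above the 15381 and 14159 of compact cells, and mitochondrial transcripts made up a median of 6.30% and 5.62% of their UMIs.

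The promoters of 3 genes that mark these cells are shown because the named transcripts are the basis of everything that follows. Each line gives the 250 bases before the transcription start, from RefSeq on GRCm38.p6, on the plus strand, for Nppa at chr4:148000472-148000721, Nppb (brain natriuretic peptide) at chr4:147985650-147985899 and Gja5 (the gap junction protein connexin 40) at chr3:97032152-97032401. Capitals mark matches on either strand to GATAA (bound by GATA factors), AAGTG (NKX2-5), TCACAC (T-box factors) and CANNTG (the E-box bound by HAND and other bHLH factors).
Nppa: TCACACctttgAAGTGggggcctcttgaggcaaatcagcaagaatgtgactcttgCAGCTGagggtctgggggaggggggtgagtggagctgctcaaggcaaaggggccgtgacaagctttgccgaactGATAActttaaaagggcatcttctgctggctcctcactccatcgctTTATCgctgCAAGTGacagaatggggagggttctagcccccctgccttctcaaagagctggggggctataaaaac
Nppb: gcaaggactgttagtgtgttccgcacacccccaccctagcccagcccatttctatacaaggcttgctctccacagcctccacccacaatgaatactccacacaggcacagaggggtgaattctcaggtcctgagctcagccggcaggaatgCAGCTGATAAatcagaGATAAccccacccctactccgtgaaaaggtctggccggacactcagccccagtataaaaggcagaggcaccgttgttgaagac
Gja5: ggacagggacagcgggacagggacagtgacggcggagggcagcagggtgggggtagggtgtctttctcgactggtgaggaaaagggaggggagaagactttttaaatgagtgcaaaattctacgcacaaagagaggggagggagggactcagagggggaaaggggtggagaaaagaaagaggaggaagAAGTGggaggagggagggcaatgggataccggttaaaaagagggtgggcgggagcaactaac

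Nppa and Nppb lie beside each other on chromosome 4, and each window held GATAA 2 times, at different positions. The Nppa matches begin at -121 on the plus strand and at -75 on the minus strand, the latter read as TTATC. Those of Nppb begin at -94 and -83, both on the plus strand. The Nppa window also held AAGTG 2 times, TCACAC 1 time and CANNTG 2 times, and in 1 place the CANNTG match contained the AAGTG match. In the Nppb window a CANNTG match and a GATAA match overlap within 1 run of capitals. The Gja5 window held AAGTG 1 time and none of the other 3 strings. Among 32851 RefSeq promoter windows of this length, 22.6% held GATAA, 40.7% AAGTG, 12.3% TCACAC and 66.2% CANNTG, so a match to any of them is common. A match is a string of letters and was not tested for binding.

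By the rule, Nppa ran in trabecular cells from 10.1 to 473 UMIs per 10,000 in the +/+ library, with a median of 34.0, and from 10.1 to 369 with a median of 36.8 in the F/F library. Just under the threshold, 20 and 27 ventricular cells held 5 to 10 Nppa UMIs per 10,000, and just over it 11 and 16 cells held 10 to 15. The threshold thus cut through a continuous range, as the plot of Nppa against Myl2 shows. Myl2 was alike on both sides of it, with medians of 114 in trabecular and 105 in compact cells of the +/+ library and 100 and 102 in the F/F library.

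**Figure D1:**
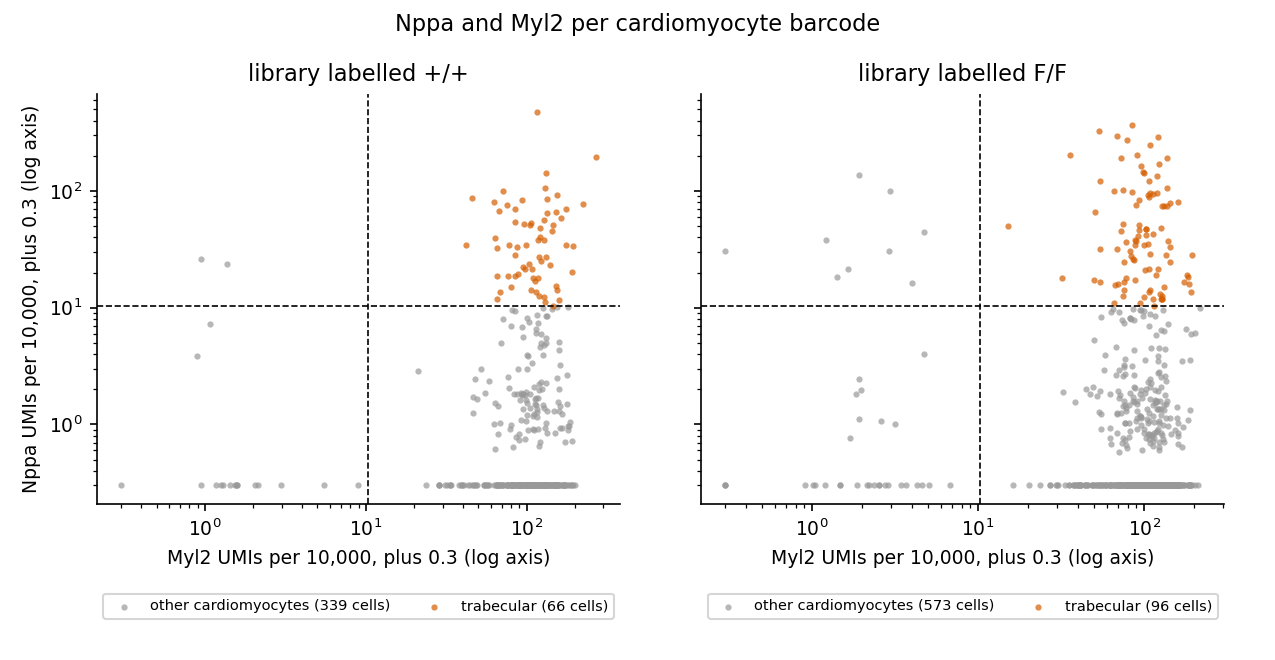
Nppa against Myl2 in each cardiomyocyte barcode, both in UMIs per 10,000 plus 0.3 on log axes, with the library labelled +/+ on the left and F/F on the right; the dashed lines stand at 10 on each scale. The 66 and 96 trabecular cells fill the upper right corner and grade into the cells under the Nppa line without a gap.

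Trabecular cells made up 17.1% of the ventricular cardiomyocytes in the +/+ library (66 of 386, exact Clopper-Pearson 95% interval 13.5 to 21.2%) and 15.3% in the F/F library (96 of 629, 12.5 to 18.3%). The intervals overlapped, and they cover counting error only, not differences between hearts. Counted over all barcodes the shares were 2.58% and 2.77%. The share depends on where the Nppa line is drawn, and at 20 UMIs per 10,000 it was 11.9% and 10.7%.

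The marker genes that the rule did not use sat high in the same cells. Nppb had a median of 5.32 UMIs per 10,000 in the trabecular cells of the +/+ library and 5.25 in the F/F library, against 0 in compact cells of both. Cited1, a transcriptional co-regulator, had medians of 10.3 and 12.6 against 1.80 and 0.737. Both genes varied widely from cell to cell: Nppb ran from 0 to 140 and Cited1 from 0 to 44.9 in the +/+ trabecular cells, so compact and trabecular cells overlapped. Smpx, a small protein of striated muscle, was high in nearly every ventricular cell, with medians of 10.3 and 11.3 in trabecular against 7.18 and 7.53 in compact cells.

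With each cell thinned to 5000 UMIs, which left out 2 and 3 trabecular cells with fewer, Nppb was found in 75% of trabecular cells of the +/+ library and 72% of the F/F library, against 25.1% and 22.5% of compact cells. Without thinning the trabecular shares were 86.4% and 83.3%, and the compact shares 35.9% and 32.8%. Haemoglobin-rich barcodes, taken as red cells, gave 0.817% and 0.603% after thinning, at median depths of 10966 and 11698 UMIs before it. Whether their Nppb was free RNA or came from a second cell under the same barcode was not tested. The trabecular and compact shares stood above the shares of these barcodes. Gja5, which marks trabeculae and later the Purkinje fibres, was found in 31.2% and 41.9% of thinned trabecular cells against 11.9% and 11.2% of compact cells. Ntn1 (netrin, a secreted guidance protein) was found in 35.9% and 31.2% against 12.2% and 5.33%. Bmp10, the BMP ligand that trabecular growth needs, was found in 26.6% and 32.3% against 7.72% and 5.13%. In the haemoglobin-rich barcodes these 3 genes were found in at most 0.258%.

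For gene-by-gene comparison the UMIs of each class were summed within a library and scaled to a common total (CPM, counts per 1000000 UMIs), and a gene was called when trabecular and compact cells differed past 1.5-fold the same way in both libraries. Of 3570 genes with at least 200 UMIs over both classes in each library, 42 were called higher (1.18%) and 58 lower (1.62%). The classes were split by Nppa within the same cells, so these counts describe what goes with Nppa and are no test. The libraries gave 70 and 100 genes past 1.5-fold higher when taken alone, of which 42 were shared, and 125 and 132 lower, of which 58 were shared. The median log2 ratio over all genes tested was -0.02 in each library. Promoter windows were at hand for 28 of the 42 higher genes and 2775 of the 3570 tested: TCACAC was in 21.4% (6 windows) of the former and 8.47% of the latter, GATAA in 17.9% and 14.6%, AAGTG in 42.9% and 37.2%, and CANNTG in 60.7% and 54%, a description of letters in few windows.

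Apart from Nppa itself, Nppb showed the greatest trabecular excess in the +/+ library, with 1268 CPM in trabecular and 145 CPM in compact cells, a log2 ratio of 3.13 (exact 95% interval 3.0 to 3.26, counting error only), and in the F/F library 919 and 141 CPM, a log2 ratio of 2.70 (2.59 to 2.82). One +/+ cell held 33.8% of the trabecular Nppb UMIs of its library, and without it the level was 867 CPM and the log2 ratio 2.58. Cited1 stood at 1537 and 1488 CPM in trabecular cells against 484 and 309 CPM in compact cells, log2 ratios of 1.67 (1.58 to 1.75) and 2.27 (2.18 to 2.35). Gja5 stood at 85.2 and 111 CPM against 28.3 and 21.7 CPM. Ntn1 stood at 97.7 and 61.6 CPM against 22.7 and 13.4 CPM. Smpx missed the threshold with log2 ratios of 0.57 and 0.51, a layer difference of smaller size in a gene that all ventricular cells express. Of the 14 trabecular genes listed, 7 had enough UMIs besides Nppa, all 7 were above compact cells in both libraries, and 4 passed 1.5-fold. The list's medians were 1.59 and 2.21, but it holds the genes by which such cells are recognised. Bmp10, with 98 and 96 UMIs, was too low for the count and stood at 81.8 and 60.4 CPM against 17.5 and 11.2 CPM.

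Genes outside that list reached the same range of ratios. Gtsf1, known for its part in the piRNA pathway of germ cells, stood at 161 and 156 CPM in trabecular cells against 28.9 and 20 CPM in compact cells, log2 ratios of 2.48 and 2.96. Slit2, a secreted ligand of Robo receptors and another guidance protein like netrin, stood at 124 and 118 CPM against 26.5 and 18.0 CPM, log2 ratios of 2.22 and 2.71. Mest, an imprinted gene for a hydrolase-like protein, was the most abundant at 3210 and 3277 CPM against 1159 and 993 CPM. The genes Kcnk3 (a background potassium channel), Itga6 (a laminin-binding integrin chain), Wdr93 (a WD-repeat protein), Slc6a6 (the taurine transporter) and Ears2 (a mitochondrial tRNA synthetase) completed the 12 genes with the greatest excess in both libraries, with log2 ratios between 1.41 and 2.24.

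Genes listed for conduction and gap junctions differed in both directions: of 17 listed 5 could be compared, 1 of them higher and 2 lower past 1.5-fold. Gja1, which encodes connexin 43, stood at 296 and 293 CPM in trabecular cells against 149 and 118 CPM in compact cells, higher like connexin 40 of the trabecular list. Kcne1, a potassium channel subunit, was lower with log2 ratios of -1.15 and -1.26, and Id2, described with the lowest genes, was the other. Among the 42 higher genes outside this list, Cav3 (muscle caveolin) had log2 ratios of 1.04 and 1.5, Srl (sarcalumenin, of the sarcoplasmic reticulum) 0.82 and 0.77, and Mb (myoglobin) 0.59 and 1.43.

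Among the genes below the compact level, Col2a1 (a fibrillar collagen best known from cartilage) stood at 20.9 and 24.5 CPM in trabecular cells against 127 and 161 CPM in compact cells, log2 ratios of -2.61 (-3.25 to -2.03) and -2.72 (-3.22 to -2.26). Id2, an inhibitor of bHLH factors, stood at 97.7 and 88.0 CPM against 298 and 395 CPM, and its relative Id3 had log2 ratios of -1.40 and -1.19. Igfbp5, which binds insulin-like growth factors, had -1.32 and -1.40. Ppp1r17, a regulator of protein phosphatase, rested on 18 and 5 trabecular UMIs, with log2 ratios of -1.32 and -3.51. The genes Slitrk5 (a neuronal membrane protein), G0s2 (an inhibitor of lipolysis), Fhl2 (a LIM-domain cofactor) and Mfap2 (a microfibril protein) were also among the 12 lowest.

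Of the 4 textbook genes of the compact wall listed, 3 could be compared and 2 were lower past 1.5-fold. Hey2, a Notch-related repressor of the compact layer, stood at 49.3 and 47.2 CPM in trabecular cells against 84.4 and 74.2 CPM in compact cells, log2 ratios of -0.78 (-1.19 to -0.38) and -0.65 (-1.02 to -0.30). Mycn, a driver of myocardial growth, stood at 31.7 and 25.2 CPM against 63.5 and 54.2 CPM, log2 ratios of -1.0 and -1.11, and was one of the 12 lowest genes. Tbx20, a cardiac T-box factor, had log2 ratios of -0.26 and 0.05. The plot of the ratios in the 2 libraries shows Nppb, Gtsf1, Slit2 and Ntn1 at one end and Col2a1 and Id2 at the other.

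**Figure D2:**
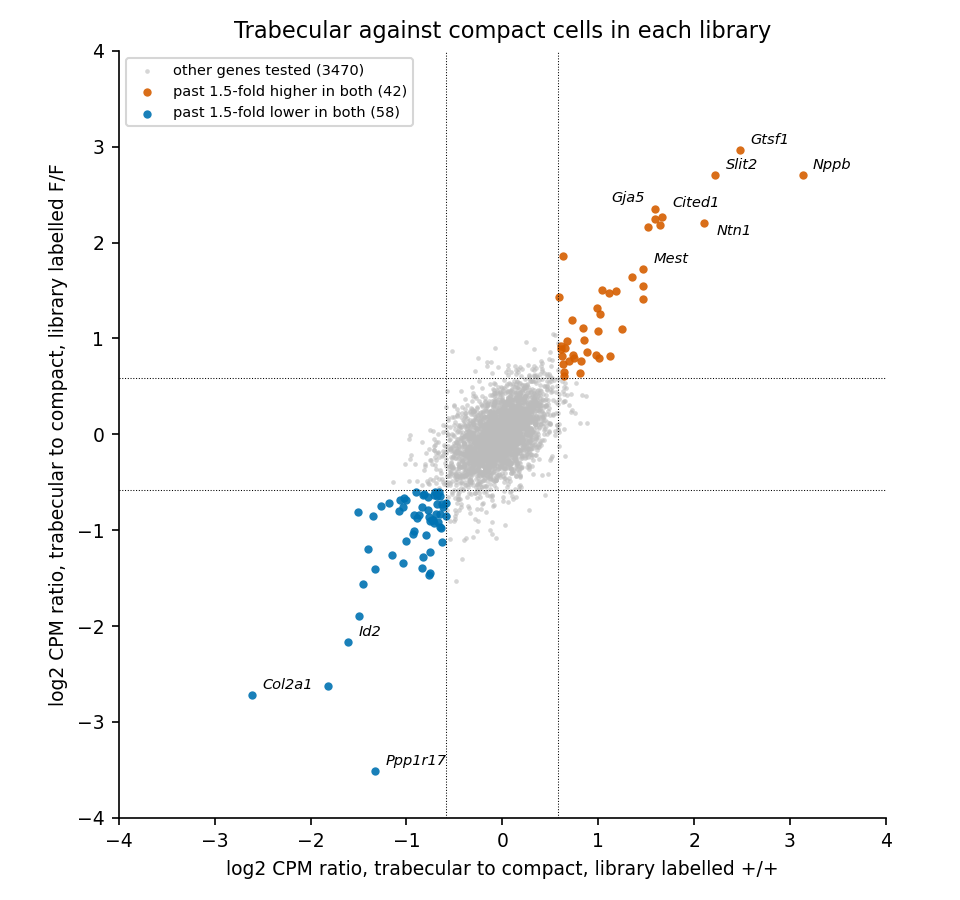
The log2 CPM ratio of trabecular to compact cells for 3570 genes, in the library labelled +/+ on the x axis and F/F on the y axis; each point is a gene and the dotted lines mark 1.5-fold. The 42 genes past 1.5-fold higher in both libraries are orange and the 58 lower are blue.

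These genes went with Nppa over its range and not only across the threshold, though not at every step. In the +/+ library Nppb stood at 122 CPM in ventricular cells with under 1 Nppa UMI per 10,000, 211 at 1 to 10, 702 at 10 to 20, 749 at 20 to 50 and 2104 at 50 or more. The cell with 33.8% of the trabecular Nppb UMIs is in the last step, which held 1102 CPM without it. In the F/F library the same steps gave 74.5, 408, 433, 926 and 1322 CPM. Mest went from 943 to 4064 CPM in the +/+ library and from 843 to 4491 CPM in the F/F library between the first and the last step. Cells with 1 to 10 Nppa UMIs, which count as compact, were thus between the extremes for these genes. Gja5 went from 18.1 to 112 CPM and from 13.9 to 144 CPM. Smpx levelled off, with 1128, 1195 and 1213 CPM in the 3 upper steps of the +/+ library.

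In the other direction Col2a1 went from 140 CPM in the lowest Nppa step to 8.48 CPM in the highest in the +/+ library, and from 174 to 7.19 CPM in the F/F library, with 4 UMIs left in the highest step of each. Hey2 kept 86.2, 79.1 and 87.0 CPM over the 3 lower steps in the +/+ library and stood at 40.6 and 27.6 CPM in the 2 upper ones. Its level was thus lower only in cells with the most Nppa in that library. Ccnd2, which encodes a D cyclin, had its main step between the first 2 bins, 877 and 454 CPM in the +/+ library and 661 and 404 CPM in the F/F library. Myl2 moved between 10843 and 11711 CPM in the +/+ library and between 9685 and 10860 CPM in the F/F library. The steps of Nppa hold 20 to 36 cells each above the threshold.

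**Figure D3:**
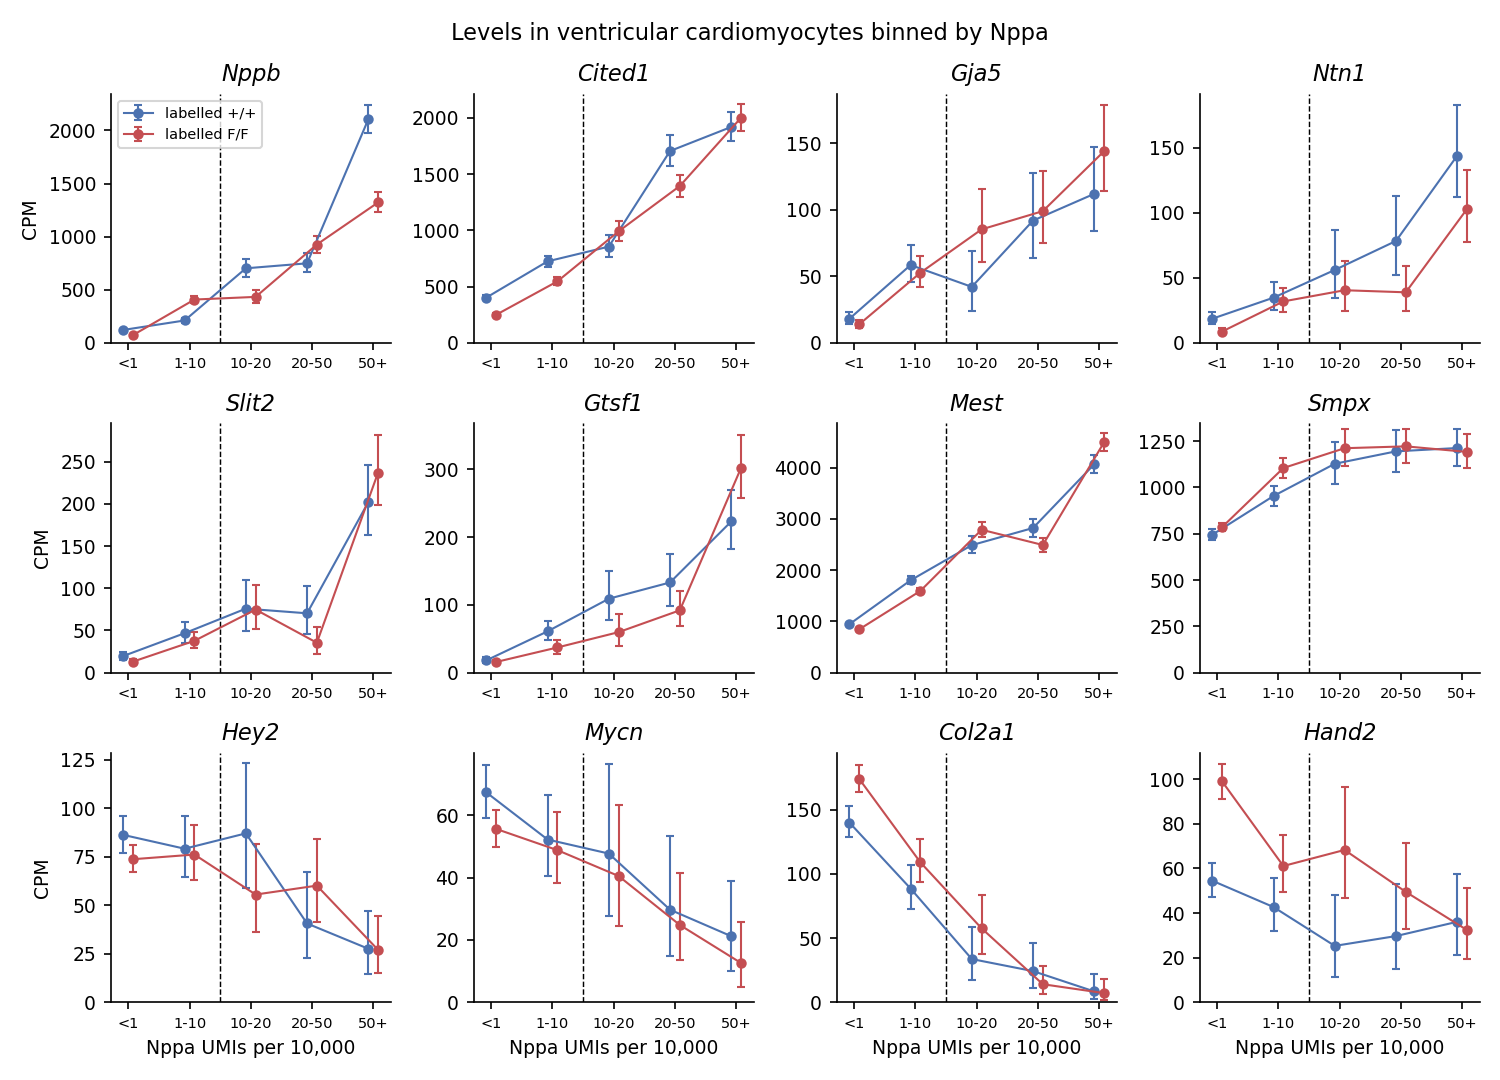
Summed level in CPM of 12 genes in ventricular cardiomyocytes grouped by their Nppa UMIs per 10,000, with the library labelled +/+ and F/F in separate colours; bars are exact 95% Poisson intervals for counting error and the dashed line is the threshold of 10. Nppb, Cited1 and Mest are higher and Col2a1 and Mycn lower at the right end than at the left in both libraries.

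The listed cardiac transcription factors differed in both directions: of 20 factors 11 could be compared, 1 was higher and 2 were lower past 1.5-fold. Hand1, a bHLH factor of the outer curvature of the left ventricle, stood at 148 and 138 CPM in trabecular cells against 64.9 and 49.0 CPM in compact cells, log2 ratios of 1.19 and 1.49. Its relative Hand2 went the other way with 30.9 and 49.0 CPM against 51.5 and 91.4 CPM, log2 ratios of -0.74 (-1.28 to -0.24) and -0.90 (-1.26 to -0.56). Tbx5, a T-box factor of the atria and the left ventricle that is counted with the atrial markers and not among the 20, was higher in trabecular cells, at 60.1 and 63.5 CPM against 27.9 and 22.8 CPM, with log2 ratios of 1.11 and 1.48. Nkx2-5, a core cardiac factor, had log2 ratios of -0.23 and -0.22, and Mef2c had 0.10 and 0.20.

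Because Hand1 and Tbx5 are known from the left ventricle, the share of cells with a Hand1 UMI was compared. At least 1 Hand1 UMI was found in 71.2% and 77.1% of trabecular cells against 33.1% and 24.6% of compact cells, and after thinning in 46.9% and 49.5% against 19.3% and 14.4%. Haemoglobin-rich barcodes gave 0.233% and 0.431% after thinning. The make-up of the classes by Hand1 thus differed along with their level of Nppa. Trabecular cells with no Hand1 UMI, 19 and 22 in number and shallower at medians of 13504 and 15130 UMIs, held 285 and 211 CPM of Id2, against 45.8 and 58.5 CPM in the 47 and 74 cells with one. Cells of the left and right ventricle were not separated before sequencing.

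When only cells with a Hand1 UMI were compared, a restriction chosen after the values were seen, 1813 genes had enough UMIs and 27 passed 1.5-fold in both libraries. Of the 42 genes first called higher, 41 kept their direction in both libraries, and 13 of the 21 that still had enough UMIs passed 1.5-fold. All 58 genes first called lower kept their direction, and 9 of the 18 with enough UMIs passed. The genes were first called in classes that include these cells, which are 47 of the 66 and 74 of the 96 trabecular cells. Hand1 itself is one of the 42. The kept directions are therefore no separate test. Of the 12 genes with the greatest excess, 11 had smaller ratios in both libraries than among all cells: Cited1 had 1.07 and 1.23, Gja5 1.01 and 1.39, Gtsf1 1.76 and 1.76, and Slit2 1.66 and 1.77. The other was Nppb, with 3.58 and 2.97, and without the +/+ cell that held most of it the ratio of that library was 2.86, at 805 CPM instead of 1321 CPM. Of the 12 lowest genes, 5 had smaller ratios in both libraries, and Id2 had -1.75 and -2.15.

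Most of the listed cell cycle genes lay below their compact level, by less than 1.5-fold for all but a few. Of all genes tested, 38.9% were below in both libraries (1387 of 3570). Of 23 S phase genes listed, 16 could be compared, 14 were below the compact level in both libraries and 1 passed 1.5-fold; their medians were -0.39 and -0.58, against -0.02 over all genes tested. Of 24 genes of G2 and mitosis, 18 could be compared, 17 were below in both libraries and 3 passed 1.5-fold. Rrm2, a subunit of ribonucleotide reductase, had log2 ratios of -0.76 and -0.86, Nusap1, a spindle protein, -0.92 and -0.84, and Cenpf, a kinetochore protein, -0.62 and -0.75. Summed over the list, genes of G2 and mitosis stood at 1948 CPM in trabecular and 2593 CPM in compact cells of the +/+ library and at 1967 and 3106 CPM in the F/F library. Thinned to 5000 UMIs per cell, trabecular cells held a median of 6 and 7 UMIs of these genes and compact cells 8 and 11. At least 10 such UMIs were found in 32.8% (21.6 to 45.7%) and 40.9% (30.8 to 51.5%) of trabecular cells against 43.4% (37.8 to 49.1%) and 55% (50.6 to 59.4%) of compact cells. These intervals overlapped in both libraries, in the F/F library only just. They cover counting error only, and their overlap is no test of a difference. At least 10 UMIs of S phase genes were found in 15.6% and 11.8% of trabecular against 19.9% and 23.5% of compact cells.

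Genes of entry into the cycle were lower or near even. Ccnd2 stood at 443 and 295 CPM in trabecular cells against 770 and 610 CPM in compact cells, log2 ratios of -0.80 and -1.05. Cdk4, the kinase that D cyclins activate, had log2 ratios of -0.44 and -0.45, while Ccnd1 had -0.11 and -0.07 and Ccnd3 0.00 and -0.22. Cdkn1c, a cyclin-dependent kinase inhibitor known from the trabecular layer, had 1227 and 1251 CPM against 1171 and 976 CPM. Of 14 genes of cell cycle exit 6 could be compared and none passed 1.5-fold. The summed S phase genes had log2 ratios of -0.45 and -0.58 in cells with a Hand1 UMI, close to the -0.36 and -0.55 of all cells.

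Genes of fuel use differed by little. Of 23 glycolysis genes 21 could be compared and 14 were below the compact level in both libraries, but only Slc2a1, the glucose transporter, passed 1.5-fold, with 287 and 234 CPM against 452 and 416 CPM. All 6 genes of the hypoxia response that could be compared, of 15 listed, were below, with medians of -0.29 and -0.35, and Slc2a1 is one of them. Of 29 genes of fatty acid use and mitochondrial supply 20 could be compared, 14 were above in both libraries, and only Mb passed 1.5-fold. Of all genes tested, 31.1% were above the compact level in both libraries. The sarcomere had 16 of 23 genes above in both libraries at medians of 0.16 and 0.18 and Tnnt1, the slow skeletal troponin T, lower at -0.83 and -1.28. Of 23 matrix genes 12 could be compared and 9 were above, among them Timp3, an inhibitor of matrix proteases, with log2 ratios of 0.85 and 0.98. Col18a1, a basement membrane collagen, was lower at -1.35 and -0.85. Of 28 genes of ErbB, Notch, BMP and ephrin signalling 7 could be compared, and only Id3 passed 1.5-fold; the receptor Erbb2 had log2 ratios of -0.09 and -0.13.

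Markers of other cell types were measured in trabecular and compact cells. Of the 10 atrial markers listed, 3 could be compared and 2 were past 1.5-fold higher: Tbx5, with the values above, and Myl1, a myosin light chain, which stood at 729 and 895 CPM in trabecular cells against 359 and 375 CPM in compact cells, log2 ratios of 1.02 and 1.25. The whole list summed to 8480 and 9348 CPM in trabecular against 7123 and 7891 CPM in compact cells, most of it Myl4, a gene of the rule, and without Myl4 to 881 and 1086 CPM against 476 and 487 CPM. Myl2-low cells held 2156 and 2367 CPM of the list without Myl4. The defining atrial factors Nr2f1 and Nr2f2 were near 0, with 2.5 and 3.77 CPM and 0.835 and 1.89 CPM in trabecular cells. Compact cells held 2.39 and 3.63 CPM and 1.19 and 1.43 CPM, and Myl2-low cells 166 and 166 CPM and 203 and 102 CPM. Dkk3, too low for the count, stood at 35.1 and 35.2 CPM in trabecular against 24.9 and 17.4 CPM in compact cells. Angpt1 went the other way, with log2 ratios of -0.18 and -0.17. All 22 Sln UMIs (sarcolipin) of the F/F trabecular cells lay in 1 cell, which also held 6 of 6 Nr2f1 UMIs and only 14.7 Myl2 UMIs per 10,000, and without it the list less Myl4 summed to 1046 CPM in that library. The +/+ trabecular cells held 0 Sln UMIs. The 10 epicardial markers summed to 92.7 and 104 CPM in trabecular against 53.3 and 51.2 CPM in compact cells, mostly from Krt19, a keratin, at 55.9 and 64.1 CPM. Wt1, the defining epicardial factor, stood at 5.84 and 3.14 CPM. The 12 immune markers summed to 75.1 CPM against 29.5 CPM in the +/+ library, 61.8 of it Lyz2 (lysozyme), and to 49.0 against 45.8 CPM in the F/F library. The 14 endothelial markers, whose level the rule limits, summed to 34.2 and 47.2 CPM against 32.0 and 42.2 CPM, and the erythroid markers other than globin to 123 and 165 CPM against 139 and 168 CPM. In trabecular cells of both libraries, 2 epicardial, 3 immune and 1 endothelial gene were at 0. The part of such RNA in the layer differences was not tested. Leaving out the cell with Sln and the +/+ cell with the most Nppb gave 96 called genes instead of 100, 92 of them the same.

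Against all other barcodes, trabecular cells stood out by the same genes. Nppb was 45.4-fold and 33.1-fold higher than in all other barcodes of its library, Cited1 18.2-fold and 25.1-fold, Gja5 16.8-fold and 23.9-fold, Ntn1 27.3-fold and 22.1-fold, and Bmp10 29.8-fold and 24.9-fold. Gtsf1 was 34.0-fold and 37.2-fold higher and Wdr93 17.4-fold and 25.6-fold higher. Most of those barcodes were not muscle, so these ratios mix the cell type with the layer. Against the 19 and 40 Myl2-low cardiomyocytes, Myh7 (the beta myosin heavy chain of the ventricle) was 27.9-fold and 12.5-fold higher and Pln (phospholamban, a brake on the calcium pump) 35.2-fold and 10.6-fold higher. Gja5 did not separate these classes in the +/+ library, with 85.2 CPM in trabecular and 98.7 CPM in Myl2-low cells. Cav3 was 8.92-fold and 5.91-fold higher than in Myl2-low cells, and Hand1, at 148 and 138 CPM in trabecular cells, stood at 5.2 and 4 CPM in Myl2-low cells.

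Between the libraries, most genes of trabecular cells had similar levels. Of 1758 genes with at least 200 UMIs over the trabecular cells of both libraries, 2 were past 1.5-fold higher in the library labelled F/F (0.114%) and 22 lower (1.25%), with a median log2 ratio of 0.00. With 1 library per genotype these are descriptions of 2 libraries, and their intervals cover counting error only. Of the markers, only Ntn1 was among the 22: the log2 ratio of F/F to +/+ was -0.46 (-0.57 to -0.36) for Nppb, -0.05 (-0.14 to 0.04) for Cited1, 0.38 (0.02 to 0.74) for Gja5, 0.03 (-0.07 to 0.13) for Smpx and -0.66 (-1.07 to -0.27) for Ntn1. Without the +/+ cell that held most Nppb, the Nppb level of the +/+ library, 867 CPM, was near the 919 CPM of the F/F library. The same cell held 17 of the 117 Ntn1 UMIs, and without it Ntn1 had -0.48 and did not pass 1.5-fold. Without that cell, a choice made after the values were seen, 19 of the 24 genes still passed, and Ccnd2, Myadm, Slc38a2 and Tnnt1 did not, nor did Ntn1. Ntn1 was also lower in the compact cells of the F/F library, at -0.76 (-1.16 to -0.37). Several trabecular genes differed between libraries in compact cells and little in trabecular cells: Cited1 had -0.65 (-0.73 to -0.56) in compact cells, Itga6 -0.56 against 0.09 in trabecular cells, and Mb -0.57 against 0.28. Gja5 had -0.38 (-0.71 to -0.05) in compact cells, opposite in sign to its trabecular ratio. The greater trabecular to compact ratios of these genes in the F/F library thus came with lower levels in its compact cells. For Gja5 and Mb they also came with higher levels in its trabecular cells, at 0.38 and 0.28. These differences between the libraries were not tested.

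Hand2, the neighbour of the deleted gene, gave 37 UMIs in the +/+ and 78 UMIs in the F/F trabecular cells, or 30.9 CPM (21.8 to 42.6) and 49.0 CPM (38.8 to 61.2). The log2 ratio was 0.67 (0.08 to 1.27), close to the 0.83 (0.62 to 1.04) of compact cells and the 0.66 (0.58 to 0.74) of all barcodes outside the trabecular class. With 115 UMIs in all, Hand2 was below the 200 needed to enter the count. The difference was thus shared with the other cells of the library and of similar size in them. Trabecular cells had the lower Hand2 level of the ventricular classes in each library. Of its neighbours, Hmgb2 (a chromatin protein of dividing cells) had a log2 ratio of 0.12 and Sap30 (a histone deacetylase complex subunit) 0.11 in trabecular cells.

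Among the 1758 genes with enough UMIs, sex-linked marker and haemoglobin genes left out, mt-Atp8, a mitochondrial ATP synthase subunit, differed most, with 424 CPM in the +/+ and 101 CPM in the F/F trabecular cells, a log2 ratio of -2.08 (-2.34 to -1.82). Compact cells had nearly the same ratio, -1.89. Nmt1 (an enzyme that attaches myristate to proteins) had -1.65 in trabecular and -1.41 in compact cells, Dync1i2 (a dynein chain) -1.20 and -1.02, Larp7 (an RNA-binding protein) -1.10 and -0.83, Naa15 (an acetyltransferase subunit) -0.96 and -1.17, and Cbx3 (heterochromatin protein HP1 gamma) -0.94 and -0.80. Of the 22 lower genes 12 were past 1.5-fold lower in compact cells as well. The other 10 did not pass 1.5-fold there.

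Others were smaller in compact cells. Ankrd1, a stretch-responsive protein of the sarcomere and nucleus, stood at 1470 CPM in the +/+ and 835 CPM in the F/F trabecular cells, a log2 ratio of -0.82 (-0.92 to -0.71), against -0.34 (-0.40 to -0.28) in compact cells. The +/+ cell with the most of it held 13.6% of the trabecular Ankrd1 UMIs of its library, and without it, the cell with most Nppb, the ratio was -0.65. Ccnd2 had -0.59 (-0.54 without that cell) against -0.34, Tnnt1 -0.59 (-0.46) against -0.14, and Bnip3, a mitophagy receptor that hypoxia induces, -0.60 against -0.27. Sfrp1, a secreted Wnt antagonist, had -0.64 (-0.94 to -0.35) against 0.07 (-0.04 to 0.18) in compact cells, the only one of the 24 genes with opposite signs. Whether trabecular and compact cells differ in these ratios was not tested, since each library is 1 sample. The higher genes were Pkn2, a protein kinase, at 0.66 and Gm26917 at 0.63, and the latter was higher in compact cells too, at 0.99.

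**Figure D4:**
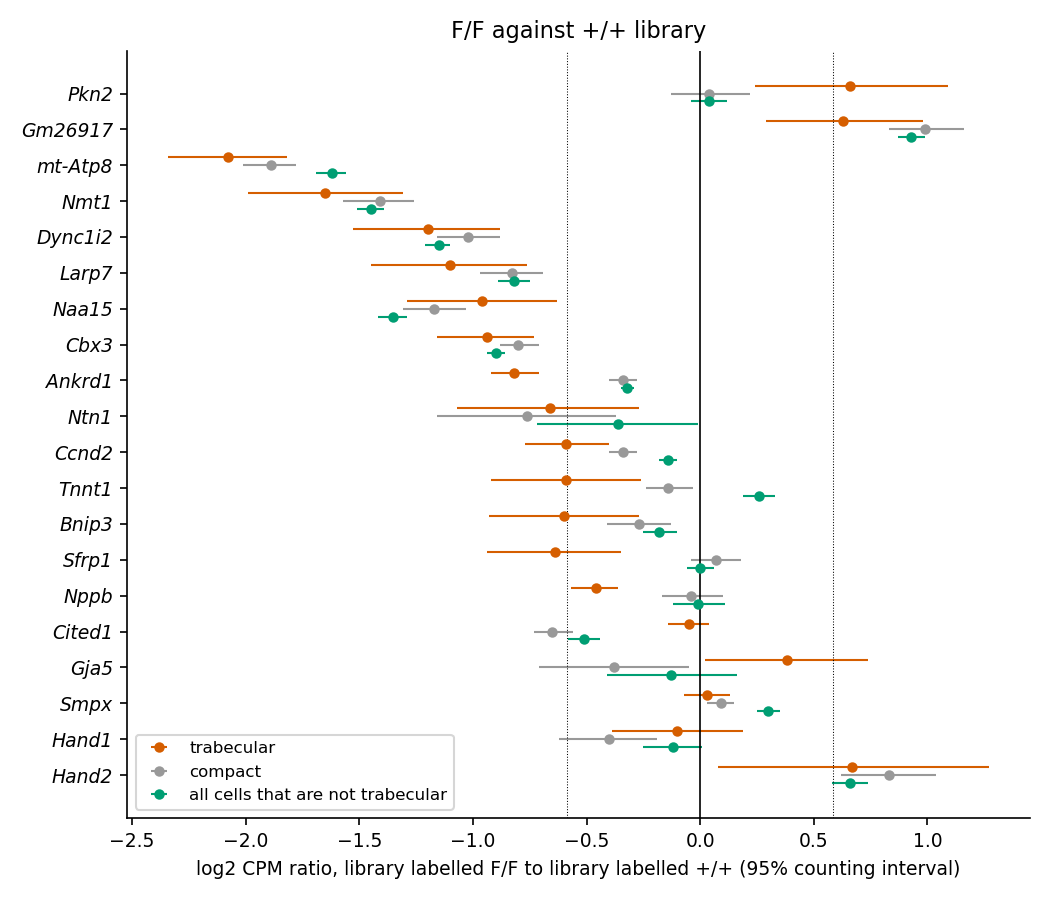
The log2 CPM ratio of the library labelled F/F to the library labelled +/+ for 20 named genes, in trabecular cells, in compact cells and in all cells that are not trabecular, with exact 95% intervals for counting error. For mt-Atp8 and Nmt1 the points of both classes lie together on the left, while Sfrp1 and Ankrd1 have their trabecular point to the left of the compact one.

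The sexes of the pooled embryos differ between the libraries, so the comparison was repeated with the 41 and 91 trabecular cells that held a Xist UMI, a choice made after the values were seen. Of 1521 genes with enough UMIs, 1 was past 1.5-fold higher and 27 lower, and 16 of these 28 were among the 24 first called. Genes that sort cells by sex were left out of all these counts.

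In bulk E11.5 hearts none of the trabecular markers passed limma's test between genotypes. Nppa measured 801, 1020 and 698 FPKM (fragments per kilobase of transcript, scaled to the depth of the library) in the 3 F/+ hearts, and the 3 F/F hearts measured 1010, 683 and 1710 FPKM. The groups overlapped, with 1 F/F library above all others and 1 below all others, and the log2 difference was 0.35 with an SE of 0.29 (limma, adjusted p = 0.999). Without the highest F/F library it was 0.00, and without the lowest 0.66. Nppb was at 98.8, 100 and 108 FPKM in F/+ and 125, 96.9 and 133 FPKM in F/F, a log2 difference of 0.20 (limma, adjusted p = 0.999). Cited1 was at 188, 174 and 133 FPKM against 140, 179 and 287 FPKM, again with overlap. The F/F library that was highest for Nppa was also the highest F/F library for Cited1, Gja5 and Ntn1. Gja5 was at 50.9, 66.4 and 42.5 FPKM against 59.2, 45.6 and 94.5 FPKM, and Ntn1 at 15.1, 21.3 and 8.31 FPKM against 12.2, 8.22 and 31.3 FPKM. The Ntn1 difference of 0.08 became -0.44 without the highest F/F library. Over 10 alternative settings it ran from -0.44 to 0.47, with 8 above 0. Smpx was at 67.2, 69.8 and 119 FPKM against 97.6, 80.6 and 109 FPKM. Of the sex-linked genes, Xist was at 27.6, 22.1 and 0 FPKM in F/+ and 0.400, 10.5 and 0.0100 FPKM in F/F. Y-linked Kdm5d was at 0, 0.0300 and 2.05 FPKM against 1.14, 0 and 2.85 FPKM. The F/F library highest for Nppa was the one with 0.0100 and 2.85 FPKM. Both genes varied within each group, and the part of sex in the bulk values was not tested. In whole hearts fewer cells of a type and less RNA per cell cannot be told apart, and nothing in the labels says that the libraries of a group came from separate litters, so p-values measure only the spread between these samples.

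Across the bulk table limma called 1 of 11491 genes (0.00870%) at an adjusted p under 0.05, and 502 genes had an unadjusted p under 0.05. The called gene was Mir6236, a microRNA gene of no list here, which is listed at 0 in all F/+ hearts and had 10900, 27600 and 21200 FPKM in the F/F hearts. A 0 in such a table can be a failed estimate, and whether this gene was counted alike in both groups was not tested. In all, 2 genes were listed at 0 in every F/+ heart with at least 1 FPKM in every F/F heart, and 2 the other way round. Of the 42 genes higher in trabecular cells 41 were tested in bulk and 0 were called, with 36 above 0, a median log2 difference of 0.20 and 4 at an unadjusted p under 0.05. The gene not tested was Gtsf1, which is listed at 0 FPKM in every F/+ and F/F heart. Of the 58 lower genes 57 were tested and 0 were called, with 37 above 0, a median of 0.10 and 5 at an unadjusted p under 0.05; over all genes tested 6016 of 11491 were above 0 and the median was 0.02. Other listed groups were also mostly to one side with 0 called: 25 of 28 sarcomere genes were above 0, with a median of 0.25 and 8 at an unadjusted p under 0.05, 22 of 23 glycolysis genes were above 0 with a median of 0.17, 12 of 14 endothelial markers with 0.22, and 3 of 13 markers of cushion mesenchyme with -0.28. The part of muscle or cushion content of the hearts in the values of the 42 genes was not tested. Hey2 measured 31.8, 29.2 and 26.4 FPKM in the F/+ hearts against 38.8, 35.5 and 41.1 FPKM in the F/F hearts, and Mycn 28.4, 24.3 and 25.2 FPKM against 19.8, 21.9 and 20.7 FPKM. The groups did not overlap for either gene, as was so for 9.23% of the genes tested (1061 of 11491). Neither passed limma's adjusted threshold, with log2 differences of 0.39 (SE 0.17) and -0.31 (SE 0.17) and adjusted p = 0.999 for each. Hand2 was at 58.6, 77.4 and 86.7 FPKM against 75.9, 79.1 and 69.2 FPKM, a log2 difference of 0.03. Of the 22 genes lower in trabecular cells of the F/F library, 19 were tested in bulk, against heterozygous rather than wild-type hearts, and 0 were called, with 14 above 0 and a median of 0.10. Nmt1 had a bulk log2 difference of 0.00, Dync1i2 0.04, Larp7 -0.04, Naa15 0.27, Cbx3 0.22 and Ankrd1 0.15. Sfrp1 had -0.28, Bnip3 -0.37 and Slc38a2 -0.24. The groups did not overlap for Sfrp1, at 44.5, 52.5 and 43.6 FPKM in F/+ against 41.1, 32.5 and 42.2 FPKM in F/F. Cbx3 and Naa15 were low in bulk, at 2.47 to 6.93 and 3.72 to 7.34 FPKM. Whether the bulk values miss part of such genes was not tested. Haemoglobin genes took 10.4 to 29.7% of the summed FPKM of a library, and their part in these values was not tested.

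**Figure D5:**
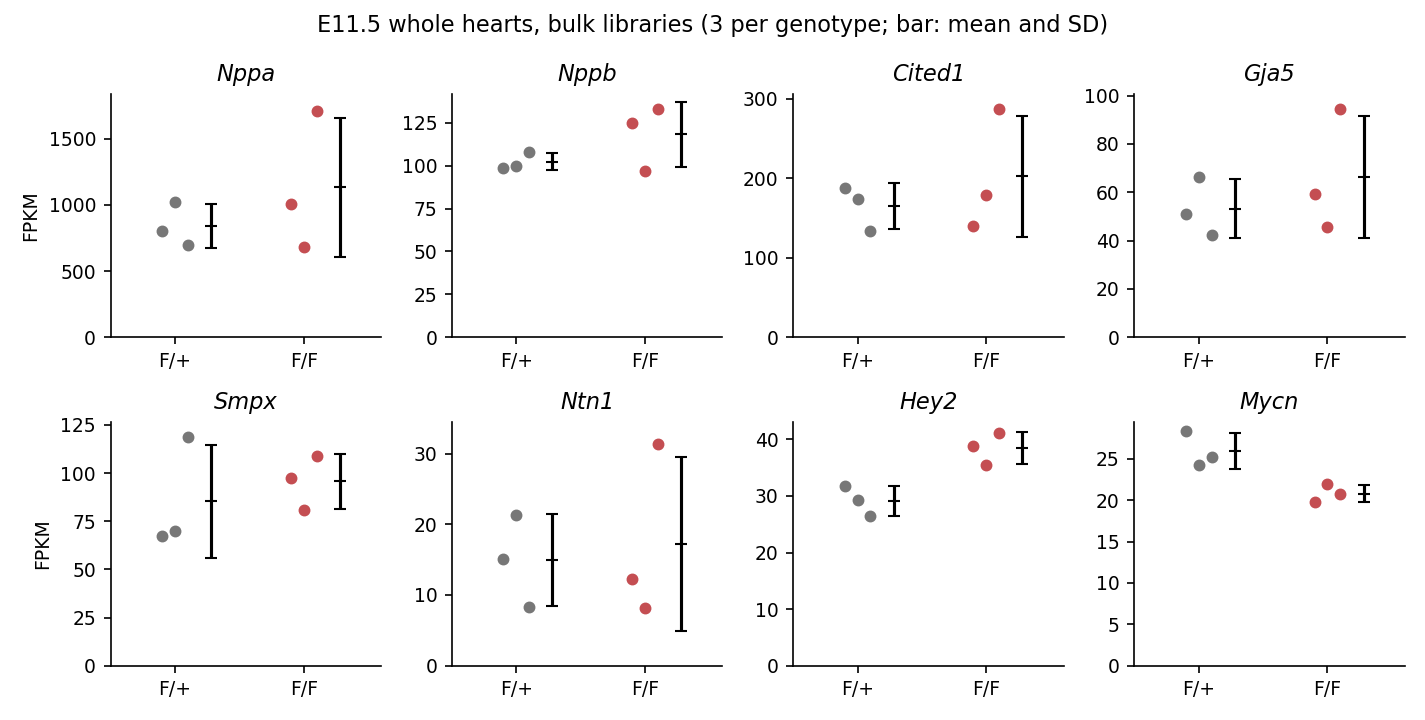
FPKM of 8 genes in the 3 F/+ and 3 F/F bulk libraries of E11.5 hearts; each point is a library and the bars are the mean and SD. The groups overlap for Nppa, Nppb, Cited1, Gja5, Smpx and Ntn1 and do not overlap for Hey2 and Mycn, as for 9.23% of all genes tested.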

How the data were processed

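Single-cell values are UMI counts per gene and barcode, deposited by the authors as 1 table of both libraries; Cell Ranger and mm10 are named in the submitters' processing notes. The bulk values are FPKM from the authors' deposited table, with TopHat2 2.0.11, CASAVA and mm9 named in the submitters' processing notes; the columns of 19 other samples were not used here. The members and gene lists were chosen with earlier results of these data known. UMIs were summed per class and library, gene lines that share a symbol (10 symbols) were left out, and ratios of CPM carry exact conditional 95% intervals. Named genes were the markers, the genes of the rule, the 12 highest and 12 lowest of each comparison, the 6 highest against other cells, the genes beside Hand2, and the most abundant or called members of each list; others named were chosen after their values were seen, and some items the rule names are not reported here. Scanpy 1.11.5's Scrublet marked 8 and 2 barcodes as doublets, too few to rely on, so none was removed, and an alternative removed the 53 and 96 highest scores. Bulk FPKM were compared as log2(FPKM + 1), which understates changes of low genes, with limma 3.58.1 (R 4.3.3) over genes with a mean of at least 1, Benjamini-Hochberg adjusted. Depth behind FPKM is unknown. Same-numbered bulk libraries were not paired: their deviations correlated at -0.036, -0.017 and 0.082. Python 3.11.15 was used. The code was tested on simulated data.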

Additional observations from a re-analysis of the deposited data

Results flagged for a closer look

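Sfrp1, which encodes a secreted Wnt antagonist, had a log2 ratio of F/F to +/+ of -0.64 in trabecular cells and 0.07 in compact cells. The marker Gja5, which encodes connexin 40, had 0.38 in trabecular cells and -0.38 in compact cells. Opposite signs in the 2 classes of the same libraries drew attention to both genes, and the difference between the classes was not tested.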

How the results depend on the processing

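The share of trabecular cells among ventricular cardiomyocytes depended on the Nppa threshold: it was 22.3% and 19.6% at 5, and 11.9% and 10.7% at 20 UMIs per 10,000, and 13.3% and 11.7% without the outflow and endothelial limits. The 100 genes called against compact cells became 164 without those limits, 28 after thinning to 5000 UMIs, 351 and 18 with a minimum of 50 and 1000 UMIs, and 27 in cells with a Hand1 UMI. The 24 genes called between libraries became 37 with Nppa at 5, 9 after thinning, and 387 and 2 with a minimum of 50 and 1000 UMIs. Of 350 recomputed trabecular to compact log2 ratios of 25 genes, 350 kept their sign and 334 were past 1.5-fold. Of 348 between the libraries, also of 25 genes, 347 kept their sign and 213 were past 1.5-fold. Both sets hold genes that were not called at first, such as Smpx in the former. The 334 and 213 therefore do not count calls that were kept. In bulk limma called 2 genes with the replicate number as a block, a pairing the labels do not state, and 1 to 2 with a library left out. The thinned and raised minimums test fewer genes, and the cause of the other changes was not tested. Genes with few UMIs and classes of 66 and 96 cells limit what could be compared.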
